A study of Homo sapiens with 12 samples.

Results

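The miR-29 family was followed through all 12 small-RNA libraries of AC16 cells and their exosomes. AC16 is an established human line made by fusing adult ventricular heart cells with transformed fibroblasts. Members were taken by name, as every row called miR-29a, miR-29b or miR-29c on either arm, which gave 7 of the 2656 miRNA names listed, and the rule itself uses no measured value. Of the 12 libraries, 6 hold whole cells and 6 hold exosomes, and each 6 divides into 3 labelled Con and 3 labelled Ang, which makes 4 groups. In the Ang files the headers read AngII, and its dose and time of exposure could not be taken from the labels. Exosomes are vesicles released into the medium, and the study asked which miRNAs they carry when the cells are made hypertrophic. Cell RNA came from one extraction kit and exosome RNA from another (miRNeasy Micro and exoRNeasy Maxi, per the labels' protocols), so kit and compartment cannot be told apart. Values are counts of unique molecular identifiers, which mark single RNA molecules before amplification, and levels are given as CPM, the library total being scaled to 1000000.

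A miRNA gene is transcribed into a hairpin, from which both arms are cut. One arm, the guide, is loaded into Argonaute and finds targets through its seed, bases 2 to 8, while the other, the passenger, is mostly discarded. The miR-29 guides are the 3p arms and are best known for repressing collagens, elastin, fibrillin and other matrix genes, so that in the heart their loss goes with fibrosis. The genes form a cluster of MIR29A with MIR29B1 on chromosome 7 and a cluster of MIR29C with MIR29B2 on chromosome 1, and both miR-29b genes give the same guide.

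The mature sequences are shown first, because all comparisons between members rest on small differences in these letters. Each is written 5′ to 3′ with the seed in capitals, as RefSeq lists it. All 7 members, and 2367 of the 2656 names, matched an entry.
miR-29a-3p: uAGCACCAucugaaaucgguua
miR-29b-3p: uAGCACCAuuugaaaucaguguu
miR-29c-3p: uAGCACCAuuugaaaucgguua
miR-29a-5p: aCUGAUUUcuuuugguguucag
miR-29b-1-5p: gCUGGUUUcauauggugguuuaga
miR-29b-2-5p: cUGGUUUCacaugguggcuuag
miR-29c-5p: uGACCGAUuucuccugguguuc
The guides share the seed AGCACCA, and no other of the 2367 matched names had it. Counting from 1 at the 5′ end, miR-29a-3p and miR-29c-3p differ by a single substitution, C10U. Between miR-29a-3p and miR-29b-3p the substitutions are C10U, G18A, U21G and A22U, and miR-29b-3p is 1 base longer. From miR-29b-3p to miR-29c-3p they are A18G, G21U and U22A. How reads that match more than 1 of these names were assigned is not given here, so levels of miR-29c-3p, a single base from the far more abundant miR-29a-3p, are uncertain to that extent. The 5p arms carry 4 different seeds, each held by 1 name in the table. Only these arms tell the miR-29b genes apart: aligned over 22 bases, miR-29b-1-5p and miR-29b-2-5p differ at 2.

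The hairpins are printed to show where each arm lies, with both arms in capitals. All are on the minus strand of GRCh38.p14, with sequence and position from RefSeq and overlaps from GENCODE 29.
MIR29A, chr7:130876747-130876810: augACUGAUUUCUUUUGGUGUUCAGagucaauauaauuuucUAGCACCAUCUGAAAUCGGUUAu
MIR29B1, chr7:130877459-130877539: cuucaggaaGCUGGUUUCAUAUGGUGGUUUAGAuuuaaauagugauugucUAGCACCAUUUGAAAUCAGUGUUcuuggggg
MIR29B2, chr1:207802443-207802523: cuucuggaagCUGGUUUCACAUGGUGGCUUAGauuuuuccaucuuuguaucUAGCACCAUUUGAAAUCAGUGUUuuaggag
MIR29C, chr1:207801852-207801939: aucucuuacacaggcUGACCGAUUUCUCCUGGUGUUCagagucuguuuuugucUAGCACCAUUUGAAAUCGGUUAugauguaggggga
On chromosome 7 the hairpins lie 648 bases apart. MIR29B1 is inside exon 4 of a transcript of the long noncoding gene LINC-PINT, and MIR29A overlaps long noncoding genes but lies wholly inside none of their exons. On chromosome 1 the hairpins lie 503 bases apart, both inside exon 5 of the long noncoding gene MIR29B2CHG.

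Library totals ran from 413513 to 528844 counts in cells and from 697049 to 1029883 in exosomes, so that 3 counts, taken as the limit of detection, stood for 2.91 to 7.25 CPM. No source says whether replicates are separate cultures, so p-values measure the spread between these libraries, which may be technical. Exosomes Con replicate 1 differed from replicates 2 and 3 by a chi-square per degree of freedom of 6.57 and 10.6, against 1.91 between replicates 2 and 3. Markers of blood cells (7 names), summed, reached 6895 CPM in cells Ang replicate 2, against 2041 and 2172 CPM in the other cells Ang libraries and 2134 to 2374 CPM in cells Con. In the same library the 2 endothelial markers summed to 4665 CPM, against 517 to 674 CPM in the other cell libraries, and the liver marker miR-122-5p had 181 CPM, against 0 to 9.69 CPM. In exosomes the blood sum was 552 CPM in Con replicate 1, 1194 and 1279 CPM in Con replicates 2 and 3, and 346 to 643 CPM in Ang. The endothelial sum was 130, 434 and 473 CPM in exosomes Con and 84.6 to 233 CPM in Ang, and miR-122-5p had 8.74, 123 and 156 CPM in Con and 4.30 to 18.8 CPM in Ang. The 7 muscle markers summed to 344 to 376 CPM in cells Con, 285 to 326 in cells Ang, 73.8 to 90.6 in exosomes Con and 57.4 to 71.4 in exosomes Ang. Most of that sum in cells Con was miR-208a-3p, at 221 ± 26.7 CPM (SD, n = 3), and miR-208b-3p, at 75.0 ± 15.5 CPM, both encoded in heart myosin genes. The other 5 muscle markers had means of 8.86 CPM (miR-133b) to 19.9 CPM (miR-499a-5p), with miR-133a-3p at 16.2 ± 1.79 CPM. No marker of any list was at 0 in every library of a group. In bulk libraries, fewer contributing cells and less RNA per cell cannot be told apart.

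In whole cells the family was abundant and almost all of it was miR-29a-3p. The 7 names together held 19109 ± 1322 CPM in cells Con and 19649 ± 587 CPM in cells Ang, against 959 ± 373 CPM in exosomes Con and 1139 ± 215 CPM in exosomes Ang (SD, n = 3 each). By mean CPM, miR-29a-3p ranked 8 in cells Con and 7 in cells Ang but 162 in exosomes Con and 133 in exosomes Ang.

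The guide hsa-miR-29a-3p (the species prefix is left out elsewhere) had 16621, 14693 and 16656 CPM in cells Con and 16890, 15862 and 17076 CPM in cells Ang. In exosomes it had 478, 840 and 1138 CPM in Con and 1023, 1142 and 758 CPM in Ang. Every exosome library lay far below every cell library, and the Con and Ang libraries overlapped in both compartments. The spread between replicates also differed: the coefficient of variation of miR-29a-3p was 7.03% in cells Con and 40.4% in exosomes Con, where replicate 1 was the lowest.

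The guide hsa-miR-29b-3p, which was first described as a nuclear-enriched member, had 2929, 2380 and 2578 CPM in cells Con and 2775, 2580 and 2318 CPM in cells Ang. In exosomes it had 25.2, 52.9 and 84.4 CPM in Con and 78.9, 90.9 and 59.7 CPM in Ang. As for miR-29a-3p, exosomes Con replicate 1 was the lowest library and Ang replicate 2 the highest, and Con and Ang overlapped in both compartments.

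The guide hsa-miR-29c-3p had 155, 203 and 160 CPM in cells Con and 139, 227 and 154 CPM in cells Ang. In exosomes it had 6.80, 15.8 and 17.5 CPM in Con and 11.5, 11.5 and 10.8 CPM in Ang, which is 7 to 17 counts per library. The highest cell library, Ang replicate 2, is the one in which blood, endothelial and liver markers stood out; their part in this value was not tested.

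The passenger strand of MIR29B2, hsa-miR-29b-2-5p, had 180, 217 and 219 CPM in cells Con and 181, 196 and 150 CPM in cells Ang. In exosomes it had 43.7, 43.9 and 51.5 CPM in Con and 40.2, 41.8 and 41.1 CPM in Ang. It had the lowest coefficients of variation of the members in exosomes, 9.57% in Con and 1.96% in Ang. At 28 to 50 counts a library, both are below what counting error alone would give, so steadiness is not shown as a trait of this member. In cells it was level with the guide miR-29c-3p, whose libraries overlapped with its own in both groups, while in exosomes its lowest library was above the highest miR-29c-3p library.

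The passenger of the other chromosome 1 gene, hsa-miR-29c-5p, was the lowest member in cells. It had 24.6, 17.4 and 23.6 CPM in cells Con and 24.5, 19.3 and 23.4 CPM in cells Ang. In exosomes it had 16.5, 40.5 and 19.6 CPM in Con and 45.9, 25.1 and 27.4 CPM in Ang. It was the only member whose mean CPM was not lower in exosomes, and its exosome Con libraries lay on both sides of its cell libraries.

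The chromosome 7 passengers were seen clearly in cells only. In cells, hsa-miR-29a-5p had 62.4, 32.9 and 54.2 CPM in Con and 65.2, 72.5 and 56.5 CPM in Ang, and hsa-miR-29b-1-5p had 34.0, 46.5 and 40.1 CPM in Con and 38.7, 31.4 and 66.3 CPM in Ang. Their exosome counts were 0, 1 and 2 in Con and 3, 0 and 2 in Ang for miR-29a-5p, and 0, 0 and 1 in Con and 1, 2 and 0 in Ang for miR-29b-1-5p. All of these exosome values are at or under the limit of 3 counts, which allows up to 2.91 to 4.30 CPM.

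Mature strands are 22 to 24 bases long and a count stands for a tagged molecule, so no length correction enters the levels compared between members. Whether all members were captured equally well in the libraries was not tested, so the order is one of counts. The order of mean levels in cells Con was miR-29a-3p, miR-29b-3p, miR-29b-2-5p, miR-29c-3p, miR-29a-5p, miR-29b-1-5p and miR-29c-5p. Neighbouring ranges overlapped between miR-29b-2-5p and miR-29c-3p and between miR-29a-5p and miR-29b-1-5p, and were separate elsewhere. In exosomes Con the order was miR-29a-3p, miR-29b-3p, miR-29b-2-5p, miR-29c-5p, miR-29c-3p, miR-29a-5p and miR-29b-1-5p. There the ranges overlapped at miR-29b-3p with miR-29b-2-5p, at miR-29c-5p with miR-29c-3p, and at the chromosome 7 passengers.

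**Figure D1:**
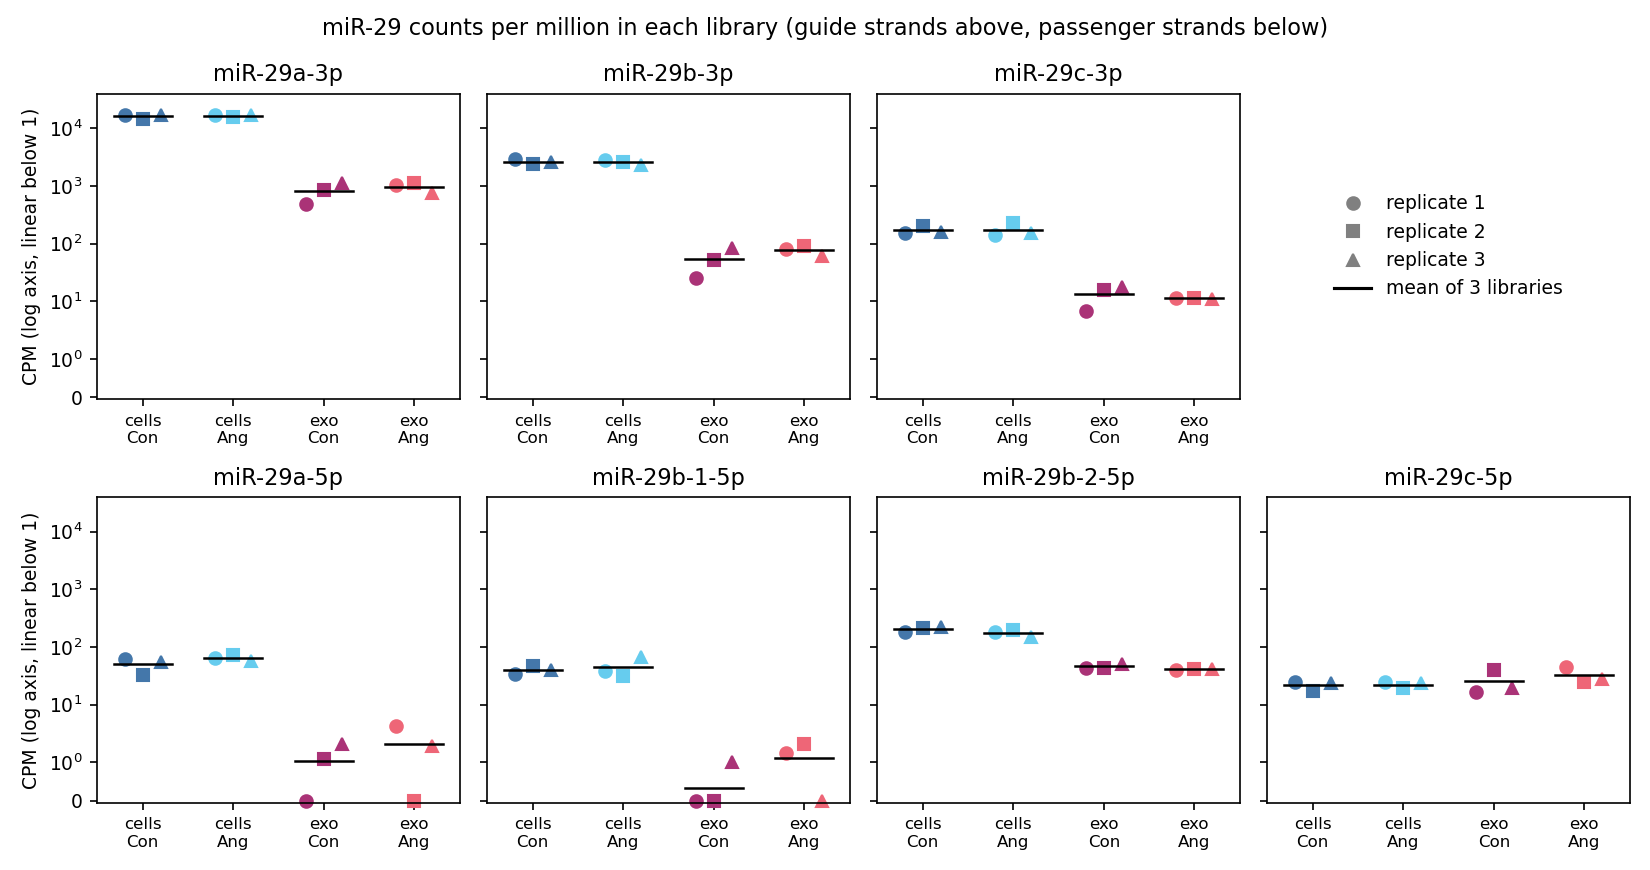
CPM on a log axis (linear below 1) for the 7 miR-29 members in each of the 12 libraries, by group, with replicates as points and the mean of each group as a bar. The guide miR-29a-3p sits between 14693 and 17076 CPM in cells and between 478 and 1142 CPM in exosomes. In Con the exosome libraries of miR-29c-5p overlap with its cell libraries. In Ang they are higher, at 25.1 to 45.9 CPM against 19.3 to 24.5 CPM in cells.

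Exosomes were compared with cells within each treatment by edgeR's quasi-likelihood test with trimmed-mean (TMM) scaling and Benjamini-Hochberg adjustment over all names tested. In Con, 6 of the 7 members were lower in exosomes and 1 was higher. In CPM the same 6 did not overlap between groups. Most of the table moved in this comparison: 83.3% of the 1710 names tested passed an adjusted p of 0.05, 44.2% lower and 39.2% higher, and 89.1% did not overlap in CPM, 68.1% lower and 21% higher. The split depends on the scaling: the median log2 difference of all names was -0.27 with TMM and -1.79 when library totals were used, and with totals 346 names were higher and 1156 lower in place of 670 and 755. In Ang, 5 members were lower, 1 was higher and 1 did not pass, where 83.3% of 1627 names passed, 45.1% lower and 38.2% higher. In CPM all 7 members were separate there, 6 lower and miR-29c-5p higher, as were 91% of the names, 72.4% lower and 18.6% higher. The median of all names there was -0.31 with TMM and -2.21 with totals, and the split of 621 higher and 734 lower names became 294 and 1176.

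The guides were lower in exosomes in both treatments. Against cells Con, miR-29a-3p was 6.85-fold lower, a log2 difference of -2.78 ± 0.24 (SE, n = 3 each, edgeR adjusted p = 1.21e-06). The same guide was 4.61-fold lower against cells Ang, with a log2 difference of -2.20 ± 0.12 (edgeR adjusted p = 1.34e-11). The gap of miR-29b-3p was wider, 17.1-fold in Con at a log2 difference of -4.09 ± 0.27 and 9.06-fold in Ang at -3.18 ± 0.14 (edgeR adjusted p = 1.28e-07 and 6.11e-13). The gap of miR-29c-3p was 4.58-fold in Con and 4.10-fold in Ang, with log2 differences of -2.19 ± 0.26 and -2.04 ± 0.26 (edgeR adjusted p = 1.75e-05 and 1.38e-06). All 3 guides were below the median of all names on either scaling: with library totals the differences in Con were -4.30 for miR-29a-3p, -5.61 for miR-29b-3p and -3.71 for miR-29c-3p.

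Many other abundant cell miRNAs were also lower in exosomes. Of the 200 tested names with at least 1000 CPM in cells Con, 127 had a log2 difference below 0 and the median was -1.19. Of these, 43 (21.5%) lay lower than miR-29a-3p and 12 (6%) lower than miR-29b-3p. In Ang, the same level in cells Ang left 205 names with a median of -0.98, of which 125 had a log2 difference below 0. Of these 205, 56 lay lower than miR-29a-3p and 21 lower than miR-29b-3p. Names picked by their level in cells tend by that choice to lie lower in exosomes, so these sets are not a neutral background. Over all names tested the median was -0.27 in Con and -0.31 in Ang.

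The passenger strands did not move as 1 group. In Con, miR-29b-2-5p was 1.54-fold lower in exosomes, a log2 difference of -0.63 ± 0.15 (SE, edgeR adjusted p = 0.00224), and with library totals the difference was -2.15. In Ang its log2 difference of -0.20 had an interval from -0.56 to 0.16 and did not pass (edgeR adjusted p = 0.275), although with library totals it was -2.10 and passed (adjusted p = 4.81e-09). Under TMM, miR-29c-5p was higher in exosomes, by 3.25-fold in Con and 5.10-fold in Ang, at log2 differences of 1.70 ± 0.39 and 2.35 ± 0.29 (edgeR adjusted p = 0.00186 and 1.19e-06). With library totals these became 0.19 and 0.46 and neither passed (adjusted p = 0.666 and 0.165), so that call rests on the scaling.

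For the chromosome 7 passengers the low exosome counts set the precision, and the ratio of summed counts is given with its exact 95% counting interval. In Con, miR-29a-5p had 73 counts in cells and 3 in exosomes, a TMM-scaled ratio of 16.7 (5.51 to 83.1). In Ang it had 91 and 5 counts, a ratio of 9.29 (3.84 to 29.3). The passenger miR-29b-1-5p had 59 counts in cells Con and 1 in exosomes Con, a ratio of 40.6 (7.01 to 1630), and 66 against 3 in Ang, a ratio of 11.2 (3.68 to 55.9). Scaled in the same way, miR-29b-2-5p had 300 and 134 counts in Con and a ratio of 1.54 (1.25 to 1.90), while miR-29c-5p had 32 and 72 and a ratio of 0.306 (0.195 to 0.470). The intervals of the chromosome 7 passengers did not overlap those of the chromosome 1 passengers in Con or in Ang, where the chromosome 1 ratios were 1.15 (0.912 to 1.45) and 0.195 (0.125 to 0.296). These intervals cover counting error only. Library scaling multiplies all 4 ratios alike, so it does not change their order.

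**Figure D2:**
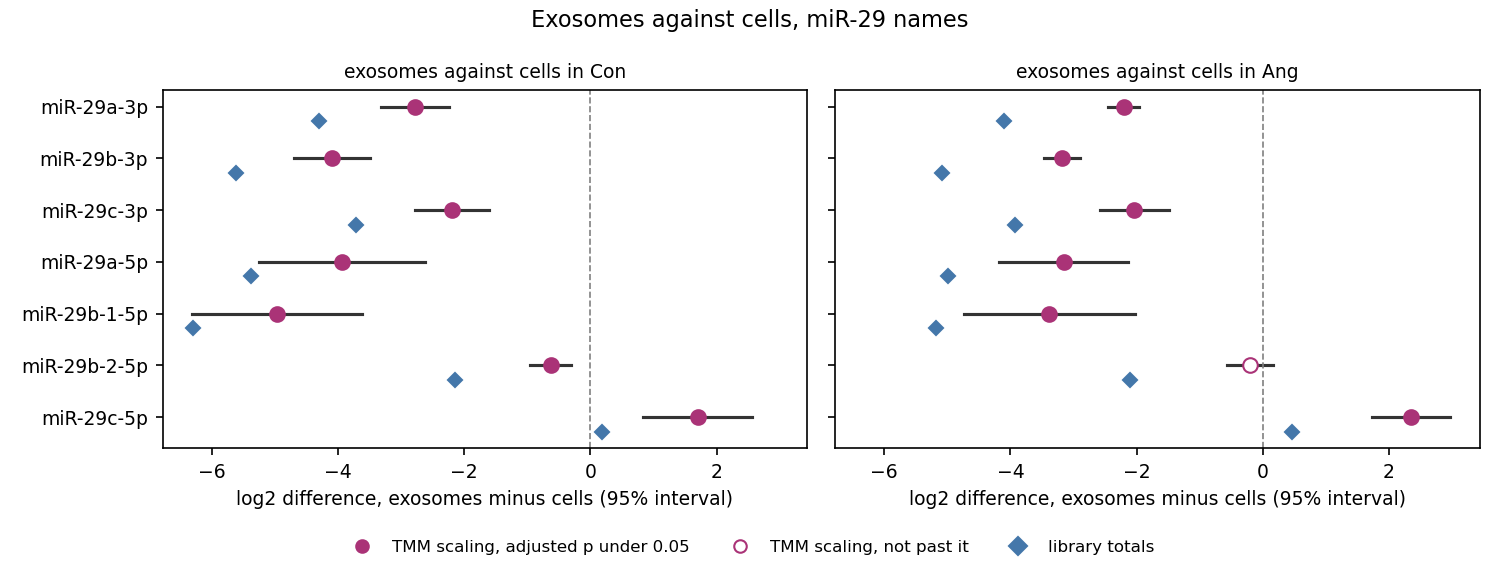
Log2 difference of exosomes minus cells for the 7 members in Con and in Ang, as circles with 95% intervals under TMM scaling (filled where the adjusted p is under 0.05) and as diamonds under library totals. Fitted values of miR-29a-5p and miR-29b-1-5p rest on 1 to 5 exosome counts a group. The guides and the chromosome 7 passengers are below 0 on both scalings, and miR-29c-5p is at 1.70 and 2.35 with TMM but at 0.19 and 0.46 with totals.

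Shares within the family were free of any library scaling, since each is a ratio of counts from the same library. Over 7 shares and 4 comparisons, 28 exact two-sided permutation tests were made, in which 3 against 3 libraries cannot give a p under 0.1. The guide miR-29a-3p made up 85.1% ± 0.77 (SD) of the 3 guides in cells Con and 85.9% ± 1.30 in cells Ang, against 92.6% ± 0.98 in exosomes Con and 91.7% ± 0.20 in exosomes Ang. The share of miR-29b-3p was 14.0% ± 0.81 and 13.2% ± 1.19 in cells and 5.86% ± 0.93 and 7.20% ± 0.11 in exosomes. For both guides no exosome library overlapped with the cell libraries of its treatment, at the smallest possible p (exact permutation p = 0.1, 0.187 after Benjamini-Hochberg adjustment over the 28). The share of miR-29c-3p was 0.931% ± 0.215 and 0.902% ± 0.277 in cells and 1.49% ± 0.21 and 1.08% ± 0.19 in exosomes, with no overlap in Con and overlap in Ang.

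**Figure D3:**
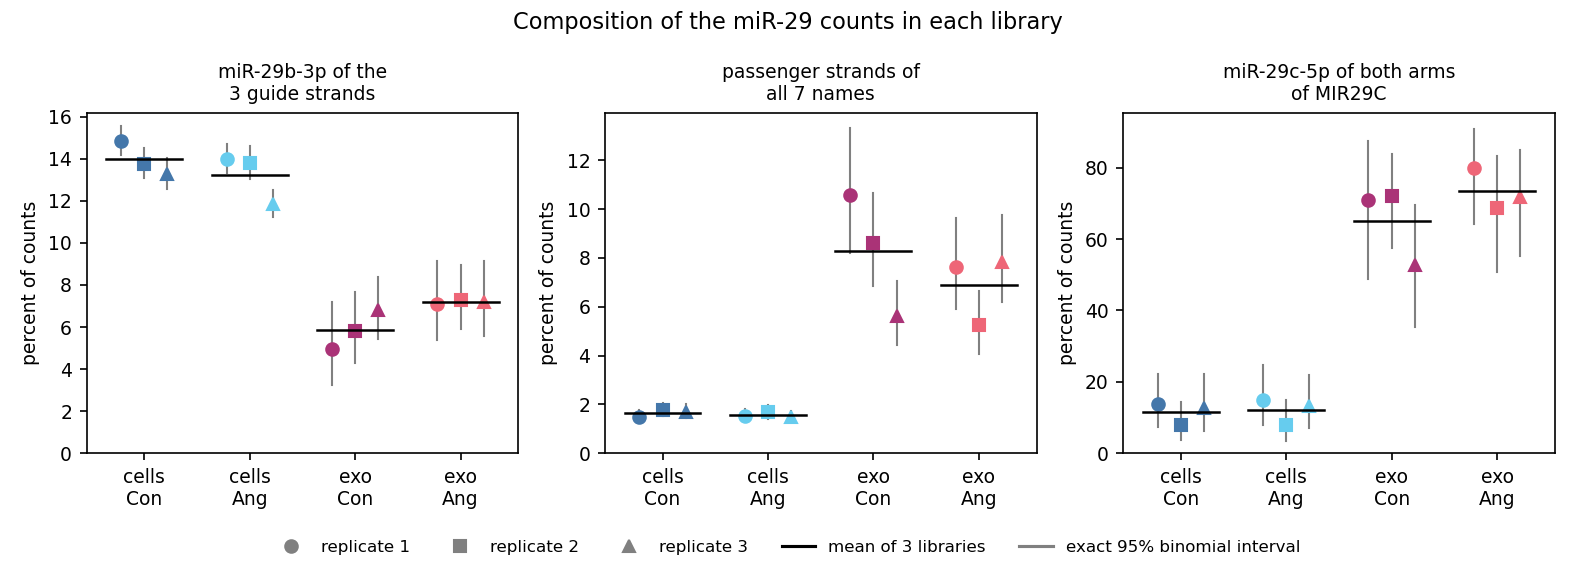
Percent of counts in each of the 12 libraries for miR-29b-3p among the guides, the passengers among all 7 names and miR-29c-5p among the MIR29C arms, with points for libraries, bars for group means and 95% exact binomial intervals, which cover counting error only. The share of miR-29b-3p among the guides is 11.9% to 14.9% in cells and 4.95% to 7.30% in exosomes.

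The passengers' share of the family was larger in every exosome library than in any cell library. All 4 5p arms together were 1.67% ± 0.15 (SD) of the family's counts in cells Con and 1.57% ± 0.10 in cells Ang, against 8.27% ± 2.48 in exosomes Con and 6.90% ± 1.43 in exosomes Ang, with no overlap (exact permutation p = 0.1 in each treatment, 0.187 adjusted). Shares of single hairpins were added after the values had been seen. Of the MIR29C arms, miR-29c-5p was 11.5% ± 3.12 and 12% ± 3.72 in cells and 65.2% ± 10.8 and 73.5% ± 5.89 in exosomes. By mean share, the arm that was the minor one in cells was the major one in exosomes. These exosome shares rest on 24 to 50 counts of both arms a library. In exosomes Con replicate 3 the share was 19 of 36 counts (52.8%, exact 95% interval 35.5% to 69.6%). They also rest on the level of miR-29c-3p, which is uncertain because read assignment is not given. Of the MIR29A arms, miR-29a-5p was 0.307% ± 0.077 and 0.390% ± 0.063 in cells and 0.105% ± 0.094 and 0.226% ± 0.211 in exosomes. The chromosome 1 genes gave 71.5% ± 3.41 and 64.1% ± 4.86 of the passenger counts in cells and 98.2% ± 2.13 and 96.0% ± 1.94 in exosomes.

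Base composition was set beside these differences, since members differ in it. GC content was 34.8% in miR-29b-3p, 36.4% in miR-29c-3p and miR-29a-5p, 40.9% in miR-29a-3p, 41.7% in miR-29b-1-5p, and 50% in miR-29b-2-5p and miR-29c-5p. The members at 50% were those with the smallest deficit or an excess in exosomes under TMM. Across all tested names with a sequence, the median log2 difference of exosomes minus cells in Con was -2.76 for 202 names under 40% GC, -1.64 for 314 names from 40% to under 50%, -0.37 for 460 names from 50% to under 60% and 1.30 for 560 names of 60% or more. In Ang these medians were -2.60, -1.58, -0.36 and 1.40. By these bands miR-29b-3p and miR-29a-3p lay below the median of names of like GC content in both treatments. So did the chromosome 7 passengers, on few exosome counts. Both miR-29c-3p and miR-29c-5p lay above their own, and miR-29b-2-5p lay below its own in Con and above it in Ang. For miR-29a-3p, at 40.9%, the reading depends on the band edge. Its -2.78 in Con was close to the median of names under 40% GC, and its -2.20 in Ang was above it. The part of GC content in the members' differences was not tested.

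**Figure D4:**
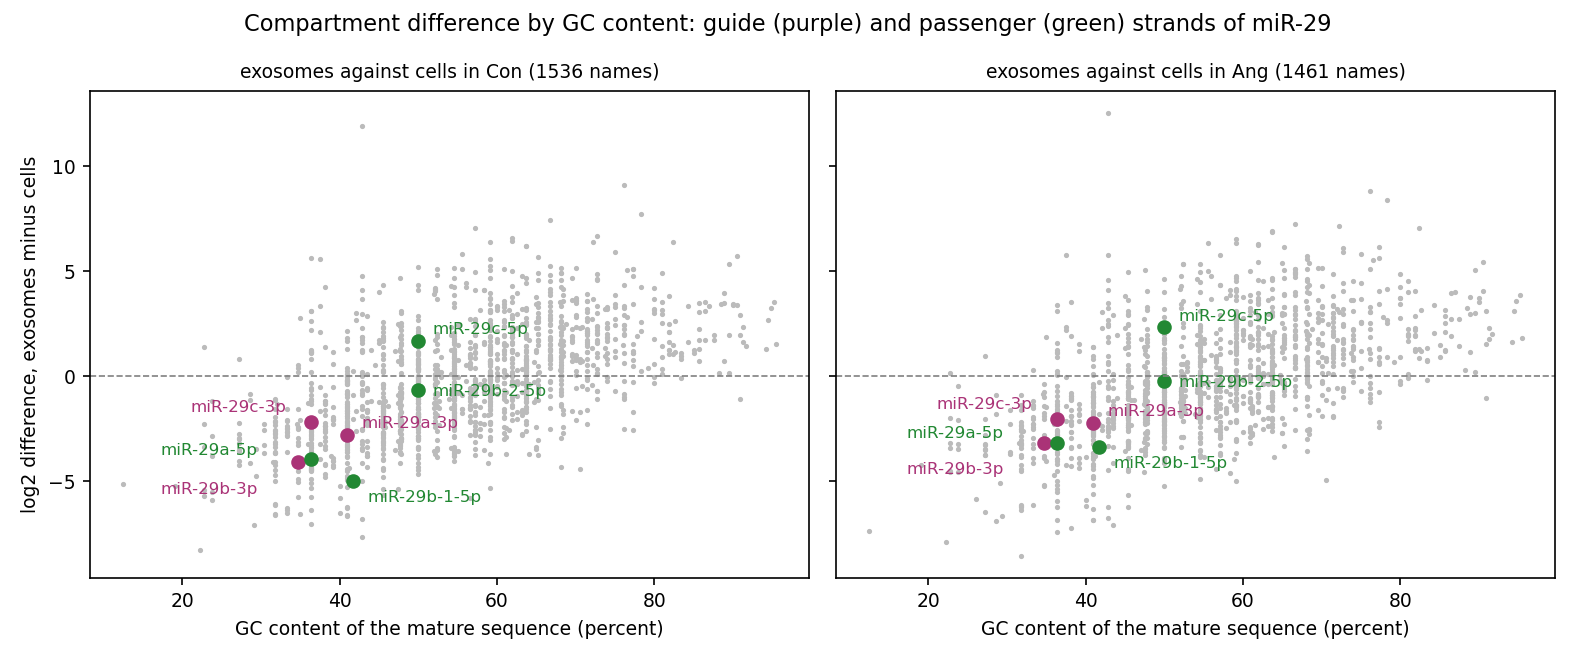
GC content of each mature sequence in percent against the log2 difference of exosomes minus cells (TMM scaling), for all tested names with a RefSeq sequence in grey, miR-29 guides in purple and passengers in green. Names of higher GC content lie higher, and the members at 50% GC, miR-29c-5p and miR-29b-2-5p, lie above the other 5.

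Short motifs that have been described in miRNAs kept in cells, sent to exosomes or moved to the nucleus were looked for in the mature strand as sequenced, over the 2367 names. The hexamer AGUGUU, described as the nuclear import element of miR-29b, was found in 13 names (0.549%) and, of the members, in miR-29b-3p only, at its 3′ end. CAGU, part of a motif described in cell-retained miRNAs and overlapping AGUGUU by 3 bases in miR-29b-3p, was in 245 names (10.4%) and again in this member only. Tested names with CAGU had a median log2 difference in Con of -0.89, against -0.21 for names without it. Only 4 names with AGUGUU were tested in Con, with a median of -2.13, against -0.27 for names without it. Uridines at positions 9 to 11, described as speeding the decay of miR-29b, were in 39 names (1.65%), among them miR-29b-3p and miR-29c-3p. The median of tested names with these uridines was -1.84 in Con, against -0.26 for the rest. GGAG (15.7% of names), CCCU (11.9%) and AGAAC (1.94%) were in no member. Their medians in Con were 0.76, 0.73 and -0.67, against -0.53, -0.46 and -0.26 for names without them. The motifs looked for differ in GC content, whose part in these medians was not tested. A match is a description of the letters only.

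In whole cells no miR-29 member passed the test between Ang and Con. In edgeR's fit none of the 7 had an unadjusted p under 0.05, limma-voom called 0 of 7, and DESeq2 called 0 of the 4 members to which it gave an adjusted p. Of all names, 6.56% of the 1630 tested passed, 2.76% higher and 3.8% lower. Those 107 calls fell to 38 without cells Con replicate 2 or 3. The guides were narrowly bounded: the log2 difference of Ang minus Con was 0.04 for miR-29a-3p with an interval from -0.10 to 0.18 (edgeR adjusted p = 0.824), and -0.06 for miR-29b-3p with an interval from -0.24 to 0.13 (adjusted p = 0.821). For miR-29c-3p it was -0.03, from -0.40 to 0.35. The passengers had log2 differences of 0.35 (-0.16 to 0.87) for miR-29a-5p, 0.19 (-0.41 to 0.79) for miR-29b-1-5p, -0.24 (-0.54 to 0.06) for miR-29b-2-5p and 0.04 (-0.66 to 0.73) for miR-29c-5p. The groups overlapped in CPM for all 7, where 22.4% of the names did not, 12.5% higher and 9.94% lower, and the median over members was 0.04 against 0.02 over all names. The chromosome 1 share of passenger counts was 67.9%, 74.7% and 72.0% by library in cells Con and 66.4%, 67.4% and 58.6% in cells Ang. The groups did not overlap (exact permutation p = 0.1, 0.187 adjusted), but were separate by less than the counting error of a library. Binomial intervals were 60.1% to 75.1% in Con replicate 1 and 58.7% to 75.3% in Ang replicate 2. This share is one of those added after the values had been seen.

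In exosomes none of the 5 members tested passed either, in a comparison in which 34% of 1199 names did, 16.9% higher and 17.1% lower. With library totals the split of 203 higher and 205 lower names became 151 and 319, and with DESeq2 it was 181 and 118. The count at an unadjusted p under 0.05 was 0, limma-voom called 0 of 5, and DESeq2 called 0 of the 4 with an adjusted p (none was given for miR-29c-3p); miR-29a-5p and miR-29b-1-5p had too few counts to be tested. The log2 difference of Ang minus Con was 0.43 for miR-29a-3p (interval from -0.12 to 0.98, edgeR adjusted p = 0.213) and 0.67 for miR-29b-3p (-0.07 to 1.41, adjusted p = 0.153). The interval of miR-29b-3p includes a log2 difference of 1, which lies outside its interval in cells. For miR-29c-3p it was -0.07 (-0.85 to 0.72), for miR-29c-5p 0.50 (-0.30 to 1.31), and for miR-29b-2-5p -0.01 (-0.36 to 0.34). In CPM the Ang libraries of miR-29b-2-5p were all lower than the Con libraries, as were those of 36.3% of the names tested. Of all names 52.4% were separate, with 16.1% higher, and the other 4 members overlapped. With library totals the log2 difference was 0.25 for miR-29a-3p (edgeR adjusted p = 0.504) and 0.50 for miR-29b-3p (adjusted p = 0.324). The calls for the main guides turned on single Con libraries. Without exosomes Con replicate 3, miR-29a-3p had a log2 difference of 0.71 (adjusted p = 0.0324) and miR-29b-3p 1.13 (adjusted p = 0.0149), and both passed. Without exosomes Con replicate 1, the library that stood apart, they were 0.17 (adjusted p = 0.401) and 0.33 (adjusted p = 0.275). Blood, endothelial and liver markers were also lowest in replicate 1 of the exosome Con libraries, and their part was not tested.

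Within the guides, the share of miR-29b-3p in exosomes was higher in Ang, at 7.09%, 7.30% and 7.20% by library, than in Con, at 4.95%, 5.82% and 6.81% (exact permutation p = 0.1, 0.187 adjusted). The binomial intervals of single libraries overlapped, for example 5.45% to 8.38% in Con replicate 3 and 5.38% to 9.13% in Ang replicate 1. The groups were separate, but by less than the counting error of a library.

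**Figure D5:**
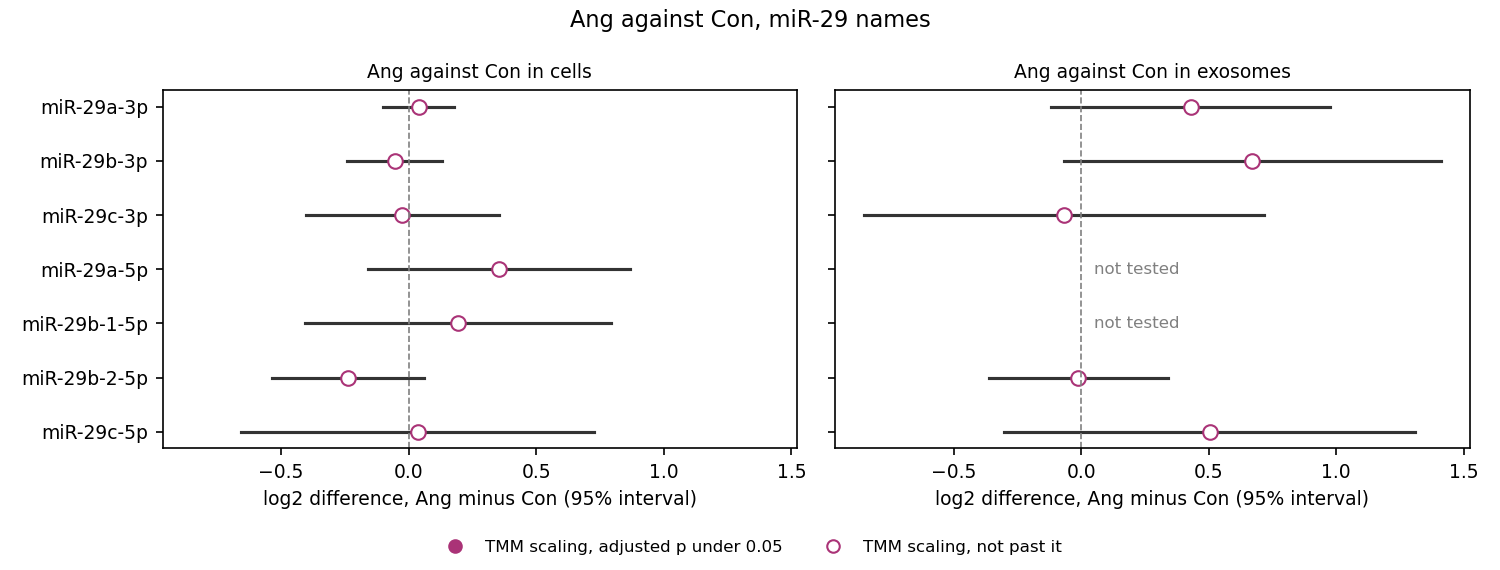
Log2 difference of Ang minus Con for each member in cells and in exosomes with 95% intervals (edgeR, n = 3 each). All intervals include 0, and those of miR-29a-3p and miR-29b-3p in exosomes run from -0.12 to 0.98 and from -0.07 to 1.41.

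Whether the Ang change differed between compartments was tested in 1 fit over all 12 libraries. None of the 7 members passed, where 15.1% of 1835 names did, 9.97% higher and 5.18% lower, and 1 member had an unadjusted p under 0.05. With library totals the 183 higher and 95 lower names became 93 and 222, and with DESeq2's size factors 250 and 77. The member was miR-29b-3p, whose change was higher in exosomes than in cells by 0.85 on the log2 scale (interval from 0.15 to 1.56, edgeR adjusted p = 0.103). The alternatives for it were 7 other settings and 12 fits with 1 library left out. Of these, miR-29b-3p passed with DESeq2 (0.98, adjusted p = 0.0363) and with that tool's size factors in edgeR (0.97, adjusted p = 0.0469). It also passed without exosomes Con replicate 3 (1.33, adjusted p = 0.00289), and under no other alternative. Thus it did not pass with limma-voom (adjusted p = 0.0700) or without exosomes Con replicate 1 (0.46, adjusted p = 0.238). Among the 7 other settings the smallest difference was 0.54, and the highest adjusted p was 0.328. Among the 12 fits with 1 library left out, the highest adjusted p was 0.330. For miR-29a-3p the difference was 0.51 (-0.07 to 1.10, adjusted p = 0.273), and it passed only without exosomes Con replicate 3 (0.82, adjusted p = 0.0193). The other 5 members had adjusted p-values from 0.322 to 0.944.

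Other miRNAs known from fibrosis were read from the same fits, as lists of 13 antifibrotic and 9 profibrotic names. The lists were drawn from general knowledge, but with earlier results of these data known. Their counts beside the shares over all names are therefore descriptions only. Of the antifibrotic names, 0 of 10 tested passed between Ang and Con in cells, where 6.56% of all names did. In that fit 2 had an unadjusted p under 0.05, a count given without its share over all names. DESeq2 called 0 of the 9 with an adjusted p, and limma-voom 0 of 10. In exosomes 0 of 8 passed, where 34% of all names did, with 0 at an unadjusted p under 0.05 and 0 by both other tools. Between compartments 10 of 11 were lower in exosomes in Con, where 44.2% of all names were, with a median log2 difference of -2.34 against -0.27 over all names, and 10 of 10 in Ang, where 45.1% were, with a median of -2.44 against -0.31. The miR-29 medians over 7 members were -2.78 and -2.20. Among these names, miR-101-3p, a repressor of the AP-1 factor FOS, had log2 differences of -3.62 in Con and -4.11 in Ang, and miR-30e-5p, of a family that targets connective tissue growth factor, -3.04 and -2.45.

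Of the profibrotic names, 6 of 9 were lower and 2 higher in exosomes in Con (44.2% and 39.2% of all names), with a median of -1.64. In Ang 5 were lower and 2 higher (45.1% and 38.2% of all names), with a median of -1.40. One of the 6 in Con, miR-208a-3p, was at -0.32 (edgeR adjusted p = 0.0487) and did not pass with the replicate block (0.0888), DESeq2 (0.107), limma-voom (0.0612), no count filter (0.123), all 12 libraries in the fit (0.0757) or any library but exosomes Con replicate 3 left out (0.0741 to 0.295). It reached -1.85 with library totals. The fibroblast survival factor miR-21-5p was lower, by log2 differences of -3.55 and -2.98. The higher names were miR-433-3p, at 2.07 and 2.16, and miR-214-3p, at 0.60 and 1.66. With library totals miR-214-3p turned to -0.92 and -0.24, and miR-433-3p in Ang came to 0.26 and no longer passed (adjusted p = 0.0801). Between Ang and Con in cells, 2 of 9 profibrotic names fell, where 3.8% of all names did: miR-433-3p by 0.61 and miR-208a-3p, which is encoded in a myosin heavy chain gene of heart muscle, by 0.47 on the log2 scale (edgeR adjusted p = 0.0102 and 0.0446). The call of miR-433-3p was lost without cells Con replicate 2 (adjusted p = 0.0581) or replicate 3 (0.0560). That of miR-208a-3p was lost with DESeq2 (0.0836) and library totals (0.0598) and with any cell library but Ang replicate 3 left out (0.0593 to 0.218). In exosomes miR-214-3p rose by 0.48 and miR-433-3p fell by 0.71, of 8 tested, where 16.9% of all names were higher and 17.1% lower (edgeR adjusted p = 0.00577 and 0.000384), and both calls held under every alternative run. The Ang change of miR-214-3p was higher in exosomes than in cells by 1.01 on the log2 scale (edgeR adjusted p = 0.000174).

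The names whose levels followed miR-29a-3p most closely were found by Pearson's r of log2(CPM + 1), taking the smaller of the values over 6 cell libraries and over 6 exosome libraries, among 1179 names of at least 10 CPM in each compartment. They were miR-30a-5p (r = 0.91 in cells and 0.94 in exosomes), miR-186-5p (0.96 and 0.90) and miR-23b-3p (0.89 and 0.88). Libraries share depth and composition across names, so these values are descriptions. The cluster partner miR-29b-3p followed miR-29a-3p closely in exosomes (r = 0.98) and weakly in cells (r = 0.34), ranking 94. The guide miR-29c-3p ran opposite to miR-29a-3p in cells (r = -0.78) and with it in exosomes (r = 0.77). The 3 names most like miR-29c-3p, looked up after the values were seen, were miR-5010-5p (0.86 and 0.87), miR-126-5p (0.79 and 0.77), an endothelial miRNA, and miR-223-3p (0.84 and 0.72), a myeloid one. In cells Ang replicate 2, where miR-29c-3p was highest, miR-126-5p had 658 CPM against 222 and 199 CPM in the other Ang libraries, and miR-223-3p had 3282 CPM against 1827 and 1969 CPM. Among the cells Con libraries miR-29c-3p was also highest in replicate 2. There miR-126-5p had 316 CPM, against 301 CPM in replicate 1 and 394 CPM in replicate 3. For miR-223-3p the values were 2076 CPM in replicate 2 against 2019 and 1901 CPM. Their part in the level of miR-29c-3p was not tested.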

How the data were processed

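Small RNA was measured in 12 libraries of AC16 cells and their exosomes. The deposited values are counts of unique molecular identifiers per miRNA name, per the file headers. Cutadapt and the build GRCh38 are named in the submitters' processing notes, while the aligner, the mismatches allowed and the annotation are not stated in those notes or in the labels. Members were read by name. The 76 names listed in cell files only (at most 20 counts) were taken as 0 in exosomes. From the counts, edgeR 4.0.16 (R 4.3.3; filterByExpr, TMM, quasi-likelihood test, two-sided) was fitted to all names of the groups compared, with Benjamini-Hochberg adjustment over all names tested and a threshold of 0.05. The fit was checked on simulated counts in which a minority of names was changed, as many up as down. Such counts cannot check the scaling between compartments, where most names moved. Alternatives were other size factors, library totals, filters, DESeq2 1.42.0, limma-voom 3.58.1, all 12 libraries in 1 fit, a replicate block and each library left out. Shares used exact permutation tests (scipy 1.17.1) and Clopper-Pearson intervals. All members were named in every comparison. Of other names, the 3 most like miR-29a-3p and up to 4 per list were planned. A further muscle marker and the 3 names most like miR-29c-3p were named beyond that plan. Members and lists were chosen with earlier results of these data known.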

Additional observations from a re-analysis of the deposited data

How the results depend on the processing

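Depth limited the chromosome 7 passengers in exosomes, at 0 to 3 counts per library, and miR-29c-3p there. Under the alternatives, 97 of 98 values of the exosome and cell comparison in Con and 96 of 98 in Ang kept their direction and side of the threshold. The exceptions were miR-29c-5p and miR-29b-2-5p with library totals, as given above. The splits of all calls that scaling moved are given with each comparison.

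The labels do not say what a replicate number stands for, and not every pair of same-numbered libraries deviated together, with correlations of same-numbered libraries from -0.05 to 0.12. With the replicate block, calls were 132 in place of 107 in cells, 398 in place of 408 in exosomes, 1398 in place of 1425 and 1345 in place of 1355 between compartments in Con and Ang, and 252 in place of 278 for the difference of changes; no miR-29 call changed, while miR-208a-3p between compartments in Con, at -0.32, lost its call.

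Leaving out 1 library brought the 107 calls in cells to 38 to 97, with 38 without cells Con replicate 2 and without replicate 3, and 70 without cells Ang replicate 1. Members near 0 changed sign. In cells, the fit of all 12 libraries gave -0.014 for miR-29a-3p and -0.021 for miR-29c-5p. With 1 library left out, miR-29a-3p ran from -0.025 to 0.074, miR-29b-3p from -0.13 to 0.037, miR-29c-3p from -0.26 to 0.11, miR-29c-5p from -0.12 to 0.14 and miR-29b-1-5p from -0.20 to 0.37. In exosomes, miR-29b-2-5p was 0.032 with DESeq2's size factors, 0.041 with DESeq2 and 0.074 in the fit of all 12, and -0.048 to 0.044 with 1 library left out. There miR-29c-3p was 0.039 with limma-voom, 0.016 in the fit of all 12 and -0.37 to 0.17 with 1 left out. For the difference of changes, miR-29c-3p was -0.22 with library totals and -0.27 to 0.35 with 1 library left out, and miR-29a-5p -0.13 to 1.58. Between compartments, library totals turned miR-214-3p to -0.92 in Con and -0.24 in Ang. The cause was not tested.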
